A study of Mus musculus with 11 samples.

Results

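The CXC and CX3C chemokine ligands described here are 8 genes, *Cxcl1*, *Cxcl2*, *Cxcl9*, *Cxcl10*, *Cxcl12*, *Cxcl14*, *Cxcl16* and *Cx3cl1*, taken by name from the 55487 genes counted in each heart. RNA was sequenced from whole E14.5 hearts of 5 *Pde2A*-/- and 6 *Pde2A*+/+ mouse embryos of the line B6; 129P2-Pde2A<tm1Dgen>, with 1 library per heart and no treatment in either group. PDE2A degrades cAMP and cGMP, the *Pde2A*-/- embryos carry the disrupted gene in every cell, and embryos of both genotypes came from matings of heterozygous parents, both sexes being used without a stated sex for single hearts. The comparison asks how the chemokine ligands of the embryonic heart differ without PDE2A. The other 8 CXC ligand genes, their receptors and the proteases that cut the ligands are given beside them.

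Chemokines are small secreted proteins that guide migrating cells through G protein-coupled receptors. CXC ligands of the CXCR2 group, such as CXCL1 and CXCL2, draw neutrophils and are induced through NF-kB, whereas the CXCR3 ligands CXCL9 and CXCL10 are classical interferon targets that draw T and NK cells. CXCL12 acts through CXCR4 and takes part in the growth of coronary vessels, and CXCL16 and CX3CL1 are made as membrane proteins that can hold cells carrying CXCR6 or CX3CR1 before proteases release them.

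Sense-strand depth ran from 35865537 to 42835382 gene reads in a heart. Values are CPM, counts scaled to a common library size by edgeR's TMM method, given as mean ± SD, and log2 fold changes are *Pde2A*-/- over *Pde2A*+/+ with their standard error (SE) from edgeR's quasi-likelihood fit over 24177 genes, with adjusted p-values by Benjamini-Hochberg over all of them. *Pde2a* itself had 0 to 2 counts in every heart, so it gave no check of the genotype labels. The paper describes PDE2A protein in neonatal mouse cardiomyocytes. The reason for the low counts was not examined, and they do not show that *Pde2A*+/+ hearts lack its RNA. *Pde2A*+/+ replicate 7 stood apart, because genes of the thymus list summed to 163 CPM there and to at most 5.96 CPM in any other *Pde2A*+/+ heart, and genes of the lymphocyte list to 83.8 against at most 0.696 CPM. The T cell gene *Cd3e* had 5.81 CPM in that heart and 0 in the other 10, and values without it are given where they change a call or move much. Genes of the liver list summed to 34.8 CPM in *Pde2A*-/- replicate D and to 33.6 to 106 CPM in *Pde2A*+/+ replicates 11, H and E, against at most 2.03 CPM in the other hearts. In whole hearts, fewer cells of a type and less RNA per cell cannot be told apart.

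Of the 8 ligands, 3 rose in *Pde2A*-/- hearts (*Cxcl1*, *Cxcl10* and *Cxcl16*), 1 fell (*Cx3cl1*) and 4 did not pass an adjusted p of 0.05 (*Cxcl2*, *Cxcl9*, *Cxcl12* and *Cxcl14*). Over all genes tested, 8.93% rose and 5.67% fell by the same call. The 3 risers also passed a fold change of at least 2, which 2.21% of all genes did in that direction. Across the 8 ligands the log2 fold changes had a median of 0.65, against −0.02 across all genes. That median lies between *Cxcl2* (0.46, SE 1.09) and *Cxcl9* (0.84, SE 0.88), which had few counts and did not pass. It therefore does not show a general rise of the ligands. Without *Pde2A*+/+ replicate 7, *Cxcl9* also rose and *Cx3cl1* no longer passed, so that 4 ligands rose and 0 fell by edgeR, where 7.64% and 3.57% of 23700 genes did. The ligands were not equally abundant, and the plot of each ligand in each heart shows levels from single counts to over 200 CPM.

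**Figure D1:**
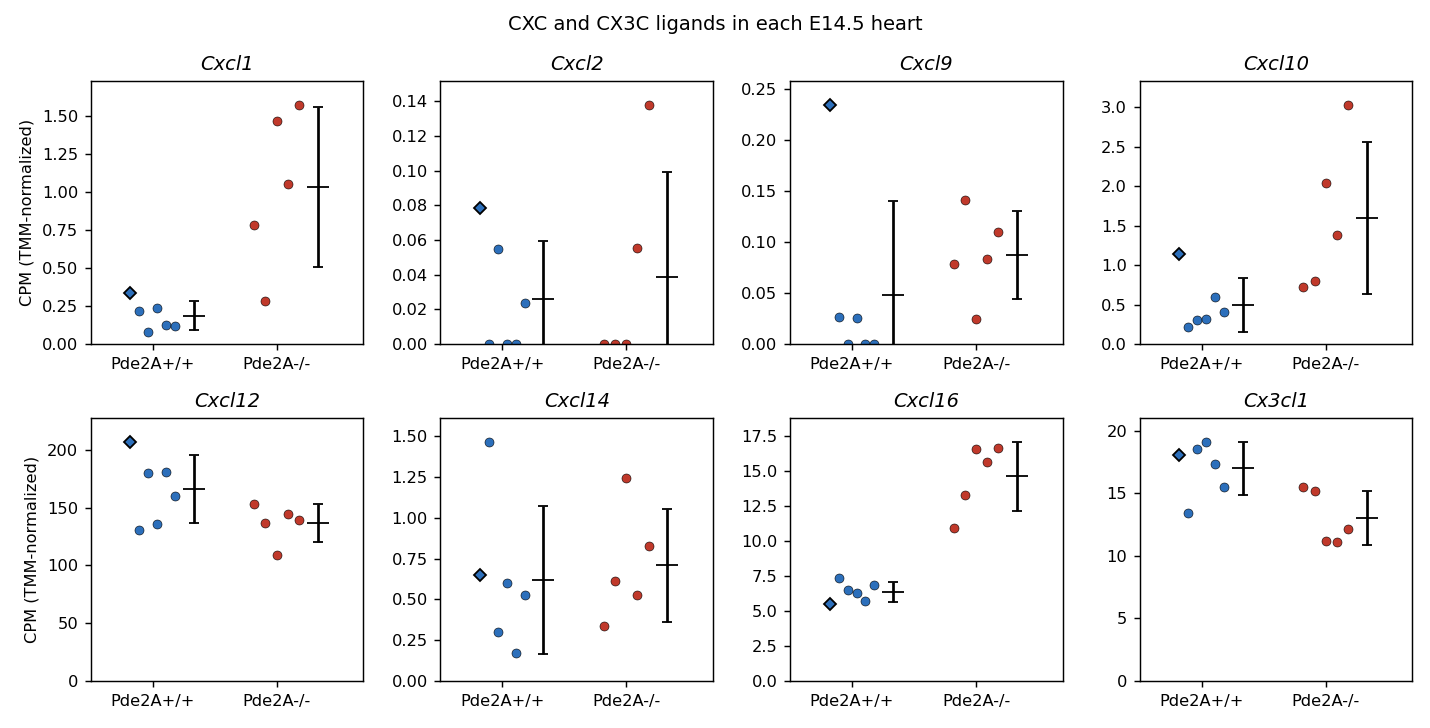
TMM-normalized CPM of the 8 ligands in each heart, on a linear axis from 0 for each gene, with 6 *Pde2A*+/+ hearts in blue and 5 *Pde2A*-/- hearts in red. The black lines are mean ± SD, cut at 0, and the diamond is *Pde2A*+/+ replicate 7, which is the highest *Pde2A*+/+ heart for *Cxcl1*, *Cxcl2*, *Cxcl9*, *Cxcl10* and *Cxcl12*, while the genotypes do not overlap for *Cxcl16*.

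Divided by exon length, *Cxcl12* was the most abundant ligand of *Pde2A*+/+ hearts, at 20.3 CPM per kb, followed by *Cx3cl1* at 4.32, *Cxcl16* at 2.11, *Cxcl14* at 0.340, *Cxcl10* at 0.221 and *Cxcl1* at 0.0994 CPM per kb. The ranges over hearts separated *Cxcl12*, *Cx3cl1* and *Cxcl16* from each other and from the rest, whereas each neighbouring pair from *Cxcl14* down to *Cxcl2* overlapped. In *Pde2A*-/- hearts the order of the means became *Cxcl12* at 16.7, *Cxcl16* at 4.84, *Cx3cl1* at 3.31, *Cxcl10* at 0.710, *Cxcl1* at 0.550 and *Cxcl14* at 0.389 CPM per kb. *Cxcl16* and *Cx3cl1* now overlapped in range, and so did *Cxcl10*, *Cxcl1* and *Cxcl14*. As a share of the summed ligand level per kb, *Cxcl16* took 18.3% ± 3.5 of the total in *Pde2A*-/- (n = 5) and 7.89% ± 1.82 in *Pde2A*+/+ hearts (n = 6). The share of *Cxcl12* was 62.8% ± 5.1 against 73.7% ± 3.5, and its ranges just failed to overlap, at 55.5% to 68.81% against 68.83% to 77.00%. Shares of a common total depend on each other, so a higher *Cxcl16* share lowers that of *Cxcl12*. The CPM of *Cxcl12* itself overlapped between the genotypes and did not pass. *Cxcl9* and *Cxcl2* stayed under 0.3% of the total in every heart.

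*Cxcl1* (ENSMUSG00000029380, chromosome 5 from 90891241 to 90893115, GRCm38), the main neutrophil-drawing ligand of this set, had 0.783, 0.283, 1.47, 1.05 and 1.57 CPM in *Pde2A*-/- replicates A, B, 14, D and 15. The 6 *Pde2A*+/+ hearts ran from 0.0822 to 0.339 CPM with a median of 0.171. Replicate B lay inside the *Pde2A*+/+ range and the other 4 *Pde2A*-/- hearts lay above it. The mean was 1.03 ± 0.53 against 0.186 ± 0.096 CPM, a log2 fold change of 2.45 (SE 0.43, edgeR adjusted p = 0.00322) or 5.46-fold. The highest *Pde2A*+/+ heart was replicate 7, and without it the log2 fold change was 2.70, with all 5 *Pde2A*-/- hearts above the remaining 5. The gene had 3 to 59 counts per heart.

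*Cxcl2* (ENSMUSG00000058427, chromosome 5 from 90903871 to 90905938), the next gene to *Cxcl1* and a ligand of the same receptor, was almost silent. It had 0, 0, 0, 2 and 5 counts in *Pde2A*-/- replicates A, B, 14, D and 15, and 0 to 3 counts in *Pde2A*+/+ hearts. The ratio of normalized counts was 1.39 (95% interval 0.400 to 5.01, counting error only) and the edgeR adjusted p was 0.830. The 5.46-fold change of *Cxcl1* lies just outside that interval, but counting error is only part of the spread between hearts. The 95% interval of edgeR's fit for *Cxcl2*, −1.90 to 2.82 on the log2 scale, contains the 2.45 of *Cxcl1*. Without *Pde2A*+/+ replicate 7 the ratio of *Cxcl2* was 2.33 (0.532 to 13.97, counting error only). With so few counts, a change in *Cxcl2* as large as that of *Cxcl1* is neither shown nor excluded.

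The 250 bases before the RefSeq start of both genes are printed here because the neighbours carry the same NF-kB letters while their levels differ. Capitals mark matches, on either strand, to the 5 motifs searched, which were an NF-kB site (GGG and TTCC with any 3 bases between), an interferon-stimulated response element (GAAA, any 2 bases, GAAA), a gamma-activated site (TTC, any 3 bases, GAA), the core of the cAMP response element (TGACG) and the core of the hypoxia response element (ACGTG). The windows are from RefSeq on GRCm38.p6, for *Cxcl1* at chr5:90890995-90891244 and for *Cxcl2* at chr5:90903649-90903898, both on the plus strand, 5′ to 3′.
Cxcl1: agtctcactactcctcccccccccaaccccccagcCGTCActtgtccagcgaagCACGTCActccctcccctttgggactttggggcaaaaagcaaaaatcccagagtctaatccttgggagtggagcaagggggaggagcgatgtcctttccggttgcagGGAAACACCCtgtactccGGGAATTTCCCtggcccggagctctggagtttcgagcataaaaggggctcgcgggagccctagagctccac
Cxcl2: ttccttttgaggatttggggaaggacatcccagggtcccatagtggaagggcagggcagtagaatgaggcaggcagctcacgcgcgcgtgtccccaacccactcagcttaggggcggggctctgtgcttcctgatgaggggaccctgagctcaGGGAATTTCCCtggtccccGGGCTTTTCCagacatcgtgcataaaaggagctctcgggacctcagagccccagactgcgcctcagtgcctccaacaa
The NF-kB letters matched 3 times in each window. In both, GGGAATTTCC on the plus strand overlaps GGAATTTCCC read from the other strand by all but 1 base, at −71 to −62 and −70 to −61 before *Cxcl1* and at −97 to −88 and −96 to −87 before *Cxcl2*. Of 32851 RefSeq promoters of this length, 4.65% hold the NF-kB letters. The *Cxcl1* window also holds the cAMP core at 2 positions, one of which overlaps its 1 match to the hypoxia core, while the *Cxcl2* window holds neither. The cAMP core is in 17.8% and the hypoxia core in 16.6% of all promoters.

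Further CXC ligand genes lie near *Cxcl1* on chromosome 5. *Cxcl5*, another CXCR2 ligand, had 3 to 9 counts in *Pde2A*-/- and 0 to 2 in *Pde2A*+/+ hearts, a ratio of 7.75 (95% interval 2.69 to 30.6, counting error only) with an edgeR adjusted p of 0.0131. *Ppbp*, the precursor of the platelet chemokine CXCL7, rose by a log2 fold change of 1.81 (SE 0.25, adjusted p = 0.000537). *Pf4*, platelet factor 4, rose by 1.24 (SE 0.16, adjusted p = 0.000326), from 4.09 ± 0.98 to 9.67 ± 1.47 CPM. In these 3 genes every *Pde2A*-/- heart was above every *Pde2A*+/+ heart, as in 5.38% of all genes. *Cxcl15* did not pass (0.12, SE 0.82), and *Cxcl3* had 4 counts in all and was not tested. *Pf4* and *Ppbp* are platelet genes, and the other 3 platelet and megakaryocyte genes tested (*Itga2b*, *Gp9* and *Tubb1*) did not pass. These 3 summed to 15.8 to 21.9 CPM in *Pde2A*-/- and 10.1 to 19.3 CPM in *Pde2A*+/+ hearts, which overlapped, and the part of platelets in the 2 ligands was not tested.

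Neutrophil genes moved beside *Cxcl1*. Of 8 genes tested, 7 rose and 1, the CXCL1 receptor gene *Cxcr2*, did not pass, where 8.93% of all genes rose. *Elane*, a granule protease, had a log2 fold change of 3.18, *S100a9*, a calcium-binding protein of myeloid cells, 2.98, and *Ngp*, a granule protein, 2.87, while *Ly6g* was at or under 3 counts in every heart. The list summed to 22.7 to 63.4 CPM in *Pde2A*-/- and 0.784 to 9.83 CPM in *Pde2A*+/+ hearts, so the genotypes did not overlap. In *Pde2A*-/- replicates A, B, 14, D and 15 the neutrophil sum was 28.7, 25.5, 22.7, 63.4 and 35.8 CPM. *Cxcl1* in the same order was at 0.783, 0.283, 1.47, 1.05 and 1.57 CPM. Replicate D was the *Pde2A*-/- heart with liver genes. Without replicate D the log2 fold change of *Cxcl1* was 2.44. The part of these cells in the *Cxcl1* result was not tested.

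**Figure D2:**
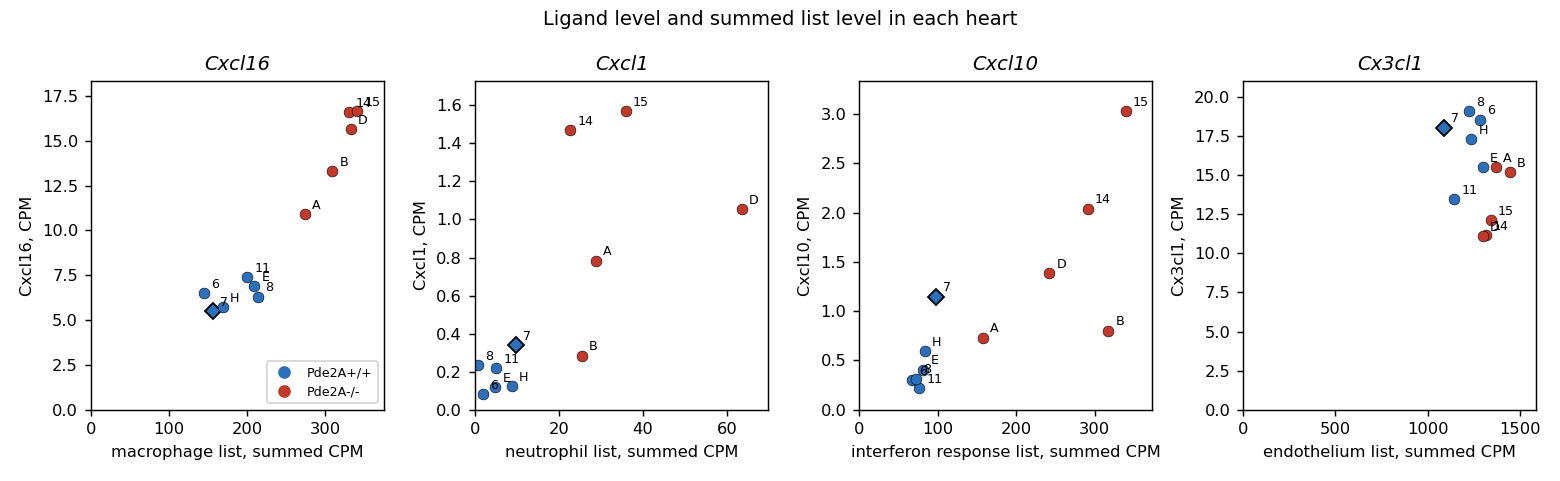
Level of a ligand (CPM, vertical) against the summed level of a gene list (CPM, horizontal) in each heart, labelled by replicate, with *Pde2A*+/+ in blue, *Pde2A*-/- in red and *Pde2A*+/+ replicate 7 as a diamond. *Cxcl16* and its macrophage list are both higher in every *Pde2A*-/- heart, *Cxcl1* of replicate B and *Cxcl10* of replicates A and B lie below replicate 7 although their list sums are higher, and *Cx3cl1* is low in replicates 14, D and 15.

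*Cxcl10* (ENSMUSG00000034855, chromosome 5 from 92346638 to 92348889), an interferon-induced ligand of CXCR3, had 0.731, 0.803, 2.04, 1.39 and 3.03 CPM in *Pde2A*-/- replicates A, B, 14, D and 15. The *Pde2A*+/+ hearts ran from 0.217 to 1.15 CPM with a median of 0.361. Replicates 14, D and 15 were above every *Pde2A*+/+ heart, and A and B were below *Pde2A*+/+ replicate 7 only. The mean was 1.60 ± 0.96 against 0.497 ± 0.344 CPM, a log2 fold change of 1.67 (SE 0.45, edgeR adjusted p = 0.0282) or 3.19-fold. Without replicate 7 it was 2.099 and the genotypes did not overlap. The call was lost on leaving out *Pde2A*-/- replicate 14, D or 15 or *Pde2A*+/+ replicate 6, 8 or E, with log2 fold changes of 1.31 to 1.72 and adjusted p-values of 0.0538 to 0.0857 by edgeR.

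*Cxcl9* (ENSMUSG00000029417, chromosome 5 from 92321347 to 92328079), the CXCR3 ligand most dependent on interferon gamma, had 3, 6, 1, 3 and 4 counts in *Pde2A*-/- replicates A, B, 14, D and 15. In *Pde2A*+/+ hearts it had 9 counts in replicate 7, 1 count in each of replicates 11 and 8, and 0 in the other 3. Over all hearts the ratio was 1.84 (95% interval 0.814 to 4.35, counting error only) and the edgeR adjusted p was 0.570. Without replicate 7 the ratio was 8.49 (2.02 to 75.8) and the adjusted p 0.0371, so that this single heart decided the call. *Cxcl11*, the third CXCR3 ligand, had 20 counts in *Pde2A*-/- and 7 in *Pde2A*+/+ hearts (ratio 3.41, 1.38 to 9.54, counting error only) and did not pass (adjusted p = 0.159).

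The windows before *Cxcl9* and *Cxcl10*, which lie side by side on the minus strand, are printed because both genes are interferon targets and the searched letters are found in 1 of them only. They are RefSeq on GRCm38.p6, for *Cxcl9* at chr5:92328080-92328329 and for *Cxcl10* at chr5:92348890-92349139, written 5′ to 3′ on the minus strand with matches in capitals.
Cxcl9: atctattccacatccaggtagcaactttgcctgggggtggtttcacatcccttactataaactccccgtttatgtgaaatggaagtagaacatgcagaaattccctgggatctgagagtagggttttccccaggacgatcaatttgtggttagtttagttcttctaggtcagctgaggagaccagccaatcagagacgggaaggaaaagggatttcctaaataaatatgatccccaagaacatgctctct
Cxcl10: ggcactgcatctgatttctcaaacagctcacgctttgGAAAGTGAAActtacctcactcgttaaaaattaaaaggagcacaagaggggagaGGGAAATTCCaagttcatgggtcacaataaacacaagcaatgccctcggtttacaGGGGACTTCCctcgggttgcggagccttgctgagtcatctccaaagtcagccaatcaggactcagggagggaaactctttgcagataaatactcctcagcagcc
The *Cxcl10* window holds the interferon-stimulated letters as GAAAGTGAAA at −213 to −204 and the NF-kB letters as GGGAAATTCC at −159 to −150 and as GGGGACTTCC at −104 to −95. Of all promoters, 2.98% hold the interferon-stimulated letters. None of the 5 motifs is in the *Cxcl9* window as spelled here. Looser spellings were not searched, so this does not show that the *Cxcl9* window lacks an interferon element. Among the other ligands, the window before *Cxcl14* holds the interferon-stimulated letters and the gamma-activated letters (in 7.02% of all promoters), that before *Cxcl12* holds 1 cAMP core and that before *Cx3cl1* holds no match. *Cxcl16* had no entry.

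The signals that induce these ligands were uneven. All 16 genes of the interferon response list rose, led by *Isg15*, a ubiquitin-like protein (log2 fold change 4.52), *Ifit1*, an RNA-binding effector (4.30), and *Usp18*, which removes ISG15 (4.20). The interferon list summed to 158 CPM in *Pde2A*-/- replicate A and to 242 to 339 CPM in the other 4 *Pde2A*-/- hearts, against 67.5 to 98.02 CPM in *Pde2A*+/+ hearts. By *Pde2A*-/- replicate A, B, 14, D and 15 this sum was 158, 317, 291, 242 and 339 CPM. *Cxcl10* in the same order was at 0.731, 0.803, 2.04, 1.39 and 3.03 CPM. The part of interferon in the *Cxcl10* result was not tested. *Ifng*, *Ifnb1* and *Il17a* were at or under 3 counts in every heart, and *Ifnb1* and *Il17a* had none. Of the 12 NF-kB feedback targets, 9 rose and 3 did not pass, among them *Icam1*, an adhesion molecule of endothelium (1.46), *Nfkbiz*, a nuclear cofactor (1.36), and *Tnfaip3*, a feedback inhibitor (1.21). Of 11 inducing cytokines and receptors tested, 7 rose and 4 did not pass, led by *Il1a* (2.95), *Il6* (2.04) and the TNF receptor gene *Tnfrsf1b* (0.91). Without *Pde2A*+/+ replicate 7 the same numbers of 16, 9 and 7 passed. Of all genes, 8.93% rose with replicate 7 and 7.64% without it.

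*Cxcl16* (ENSMUSG00000018920, chromosome 11 from 70453983 to 70459984), the membrane-bound ligand of CXCR6 and a scavenger receptor made by macrophages and endothelium, showed the clearest rise. It had 10.9, 13.3, 16.6, 15.7 and 16.7 CPM in *Pde2A*-/- replicates A, B, 14, D and 15, and 5.50 to 7.39 CPM with a median of 6.40 in *Pde2A*+/+ hearts. All 5 *Pde2A*-/- hearts were above all 6 *Pde2A*+/+ hearts, as in 5.38% of all genes, and none of the other 7 ligands separated the genotypes in this direction or in the opposite one, in which 3.11% of all genes did. The mean was 14.6 ± 2.5 against 6.38 ± 0.71 CPM, a log2 fold change of 1.20 (SE 0.12, edgeR adjusted p = 3.1e-05) or 2.29-fold. Leaving out any heart kept it between 1.15 and 1.29 with adjusted p-values of at most 0.000215. Exons of *Zmynd15* cover 18.3% of its exons on the opposite strand, and with reads of both strands the log2 fold change was 1.12.

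Macrophage genes moved with *Cxcl16*. Of 12 markers 10 rose, where 8.93% of all genes did. The largest changes were in *Fcgr3*, an IgG receptor (log2 fold change 1.43), and the complement genes *C1qc* (1.12) and *C1qb* (1.001). The list summed to 273 to 341 CPM in *Pde2A*-/- and 144 to 214 CPM in *Pde2A*+/+ hearts. Per 100 CPM of macrophage markers, *Cxcl16* was at 4.59 ± 0.43 CPM in *Pde2A*-/- and 3.56 ± 0.52 CPM in *Pde2A*+/+ hearts, and 3 of 5 *Pde2A*-/- hearts were above every *Pde2A*+/+ heart. The part of macrophage number in the rise was not tested. Among 14024 genes at a mean level of 1 CPM or more, those whose log2 CPM over the 11 hearts lay nearest to *Cxcl16* were *Slc15a3*, an endosomal peptide transporter (root mean square difference 0.125), *Fcgr1*, an IgG receptor of macrophages (0.142), and *Sdc4*, a syndecan (0.143), where *Cxcl16* itself varied by 0.617 around its mean.

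The receptor of CXCL16 was scarce. *Cxcr6* had 2 counts over the 5 *Pde2A*-/- hearts and 20 counts over the 6 *Pde2A*+/+ hearts, 9 of which were in replicate 7, and did not pass (edgeR adjusted p = 0.0960). Among proteases that release CXCL16 and CX3CL1 from the membrane, *Adam10* rose by a log2 fold change of 0.19 (SE 0.04, adjusted p = 0.01000), from 265 ± 8 to 302 ± 12 CPM. *Adam17* did not pass (0.064, SE 0.039). Of the 7 proteases, *Mmp2* (0.37) and *Mmp14* (0.20), matrix metalloproteases that also cut CXCL12, rose too, without overlap between the genotypes. Of all genes, 8.93% rose and 5.38% were without overlap in this direction. *Mmp9* (0.81), *Dpp4* (0.15) and *Cpm*, the carboxypeptidase M gene (−0.93), did not pass. Without *Pde2A*+/+ replicate 7, *Mmp9* was at 1.38 and passed (edgeR adjusted p = 0.0388), and *Cpm* was at −0.35 and did not. The call for *Mmp14* was lost on leaving out *Pde2A*-/- replicate 14, D or 15 or *Pde2A*+/+ replicate 6 or H.

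*Cx3cl1* (ENSMUSG00000031778, chromosome 8 from 94772009 to 94782427), the only CX3C ligand and a product of endothelium and neurons, had 15.5, 15.2, 11.1, 11.1 and 12.1 CPM in *Pde2A*-/- replicates A, B, 14, D and 15. The *Pde2A*+/+ hearts ran from 13.5 to 19.1 CPM with a median of 17.7. Replicates 14, D and 15 were below every *Pde2A*+/+ heart and A and B lay within their range. The mean was 13.0 ± 2.2 against 17.0 ± 2.1 CPM, a log2 fold change of −0.38 (SE 0.12, edgeR adjusted p = 0.0412). The call was close to the threshold and was lost in 8 of 11 fits that left out a heart (*Pde2A*-/- replicates 14, D and 15, *Pde2A*+/+ replicates 7, 6, 8, H and E), with adjusted p-values of up to 0.107 and log2 fold changes between −0.45 and −0.33.

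Endothelial genes moved in both directions beside *Cx3cl1*. Of 9 markers, 3 rose, 1 fell and 5 did not pass, where 8.93% of all genes rose and 5.67% fell. *Emcn*, a surface sialomucin (log2 fold change 0.50), and *Pecam1*, an adhesion molecule (0.34), rose, and *Cldn5*, a tight junction claudin, fell (−0.79). The list summed to 1299 to 1445 CPM in *Pde2A*-/- and 1087 to 1300 CPM in *Pde2A*+/+ hearts. Per 100 CPM of these markers, *Cx3cl1* was at 0.849 to 1.13 CPM in *Pde2A*-/- and 1.18 to 1.66 CPM in *Pde2A*+/+ hearts, so that all 5 were below all 6. Before this division *Cx3cl1* overlapped between the genotypes, and the list sum used as divisor ran higher in *Pde2A*-/- hearts. How many of all genes the same division would separate was not examined. The same division put *Cxcl12*, which did not pass, at 8.30 to 11.2 against 11.1 to 19.1 CPM. In it 4 of the 5 *Pde2A*-/- hearts were below every *Pde2A*+/+ heart. The receptor gene *Cx3cr1*, one of the macrophage markers, was at 22.8 ± 2.8 against 16.9 ± 3.6 CPM (log2 fold change 0.43, SE 0.14) and fell just short of the threshold in edgeR (adjusted p = 0.0503), while DESeq2 gave an adjusted p of 0.0154. The genes nearest to *Cx3cl1* over the hearts were *Setd6*, a lysine methyltransferase (root mean square difference 0.0788), *Pdss1*, an enzyme of coenzyme Q synthesis (0.0803), and *Tnnt1*, a troponin T of slow skeletal muscle (0.0813), where *Cx3cl1* varied by 0.273.

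*Cxcl12* (ENSMUSG00000061353, chromosome 6 from 117168535 to 117181367), the ligand of CXCR4, had 153, 137, 109, 144 and 139.5 CPM in *Pde2A*-/- replicates A, B, 14, D and 15. The *Pde2A*+/+ hearts ran from 131 to 207 CPM with a median of 170.2. Only replicate 14 lay below every *Pde2A*+/+ heart and the genotypes overlapped widely. The mean was 137 ± 17 against 166 ± 29 CPM, a log2 fold change of −0.28 (SE 0.12, 95% interval −0.54 to −0.03 before adjustment) that did not pass over all genes (edgeR adjusted p = 0.126). Without *Pde2A*+/+ replicate 7, the highest heart, it was −0.21.

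*Cxcr4*, the gene of its signalling receptor, fell in *Pde2A*-/- hearts. It had 8.82, 8.12, 7.56, 11.05 and 9.20 CPM in *Pde2A*-/- replicates A, B, 14, D and 15, and 11.5 to 17.3 CPM with a median of 14.1 in *Pde2A*+/+ hearts. The genotypes did not overlap, as in 3.11% of all genes in this direction. *Cxcr4* fell by 0.66 on the log2 scale (SE 0.12, edgeR adjusted p = 0.00405), and the call held without any single heart, though not in the hearts named by a letter alone (−0.70, adjusted p = 0.132). *Ackr3*, the scavenging receptor of CXCL12, was at 58.3 ± 11.5 against 63.1 ± 6.5 CPM and did not pass (−0.11, SE 0.11). *Ackr1*, an atypical receptor of red cells and venules that binds inflammatory CXC and CC ligands without signalling, rose from 0.532 ± 0.164 to 3.51 ± 0.88 CPM (log2 fold change 2.71, SE 0.23, adjusted p = 1.17e-05). Of 8 erythroid markers 5 rose, where 8.93% of all genes did, led by *Hemgn* (4.94), *Klf1* (4.10) and *Slc4a1* (2.81), and 3 did not pass. In 5 of the 8 every *Pde2A*-/- heart was above every *Pde2A*+/+ heart, as in 5.38% of all genes. The erythroid list sum, 2195 to 3923 against 870 to 3483 CPM, overlapped between the genotypes. *Hemgn*, *Klf1* and *Slc4a1* averaged 47.9, 17.7 and 381 CPM in *Pde2A*-/- hearts, so most of that sum came from other genes of the list. In *Pde2A*-/- replicates A, B, 14, D and 15 the sum was 2784, 2588, 2195, 3923 and 3692 CPM. *Ackr1* in the same order was at 2.71, 4.70, 4.08, 2.66 and 3.39 CPM. The part of erythroid cells in *Ackr1* was not tested. *Cxcr2* (0.77), *Cxcr3* (−0.68) and *Cxcr5* (−1.03, and −0.13 without *Pde2A*+/+ replicate 7) did not pass, and *Cxcr1* had too few counts to be tested. Of the 8 receptors tested, 1 rose and 1 fell, where 8.93% of all genes rose and 5.67% fell.

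**Figure D3:**
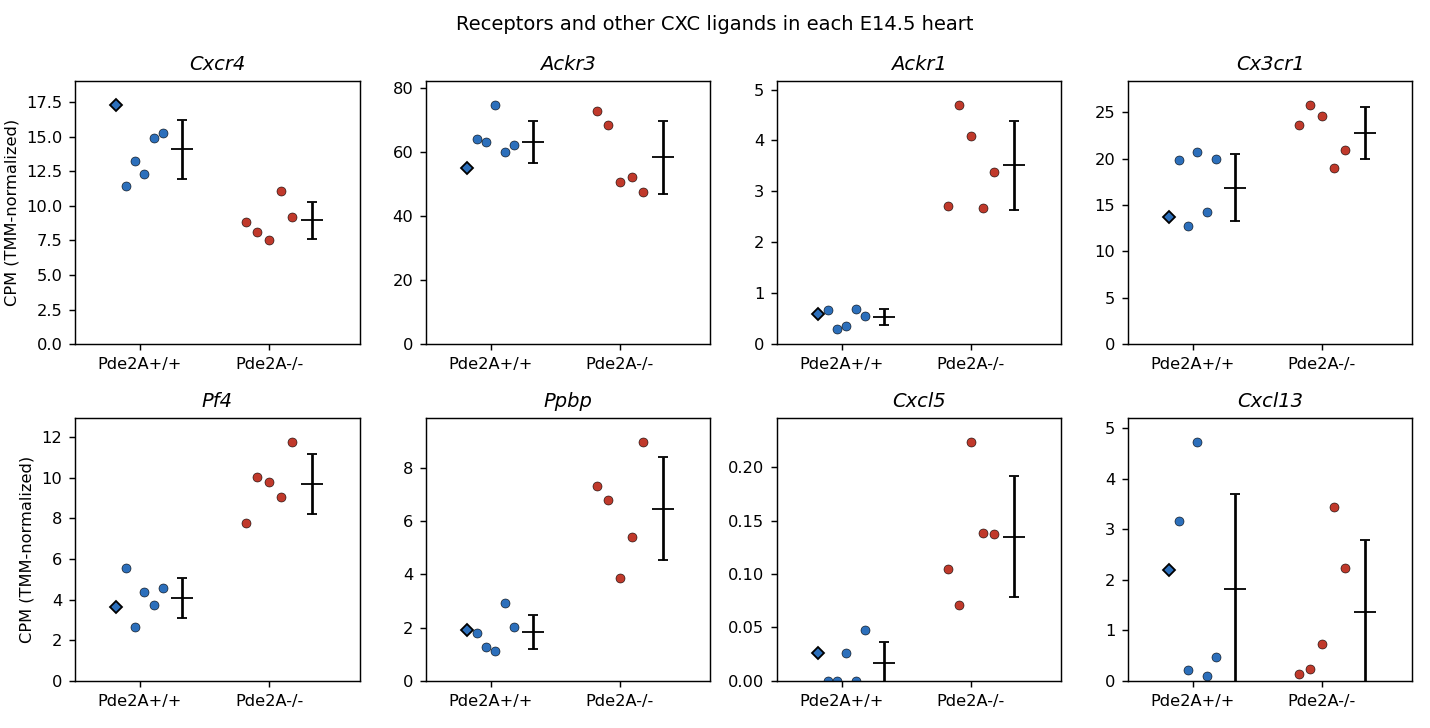
TMM-normalized CPM of 4 receptors and 4 CXC ligands outside the 8 in each heart, on linear axes from 0, with *Pde2A*+/+ in blue, *Pde2A*-/- in red, mean ± SD in black (cut at 0) and *Pde2A*+/+ replicate 7 as a diamond. The genotypes do not overlap for *Cxcr4*, *Ackr1*, *Pf4*, *Ppbp* and *Cxcl5*, and they overlap for *Ackr3*, *Cx3cr1* and *Cxcl13*.

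*Cxcl14* (ENSMUSG00000021508, chromosome 13 from 56288643 to 56296551), a ligand of epithelia and fibroblasts without a settled receptor, had 0.339, 0.614, 1.24, 0.527 and 0.826 CPM in *Pde2A*-/- replicates A, B, 14, D and 15, and 0.174 to 1.47 CPM with a median of 0.565 in *Pde2A*+/+ hearts. The genotypes overlapped over almost the whole range. The log2 fold change was 0.20 (SE 0.46, 95% interval −0.79 to 1.19, edgeR adjusted p = 0.821). *Cxcl13*, the B cell ligand of CXCR5, varied from 0.0994 to 4.73 CPM within *Pde2A*+/+ hearts and did not pass (−0.43, SE 0.90), and neither did *Cxcl17*, a mucosal ligand (1.03, SE 0.71).

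**Figure D4:**
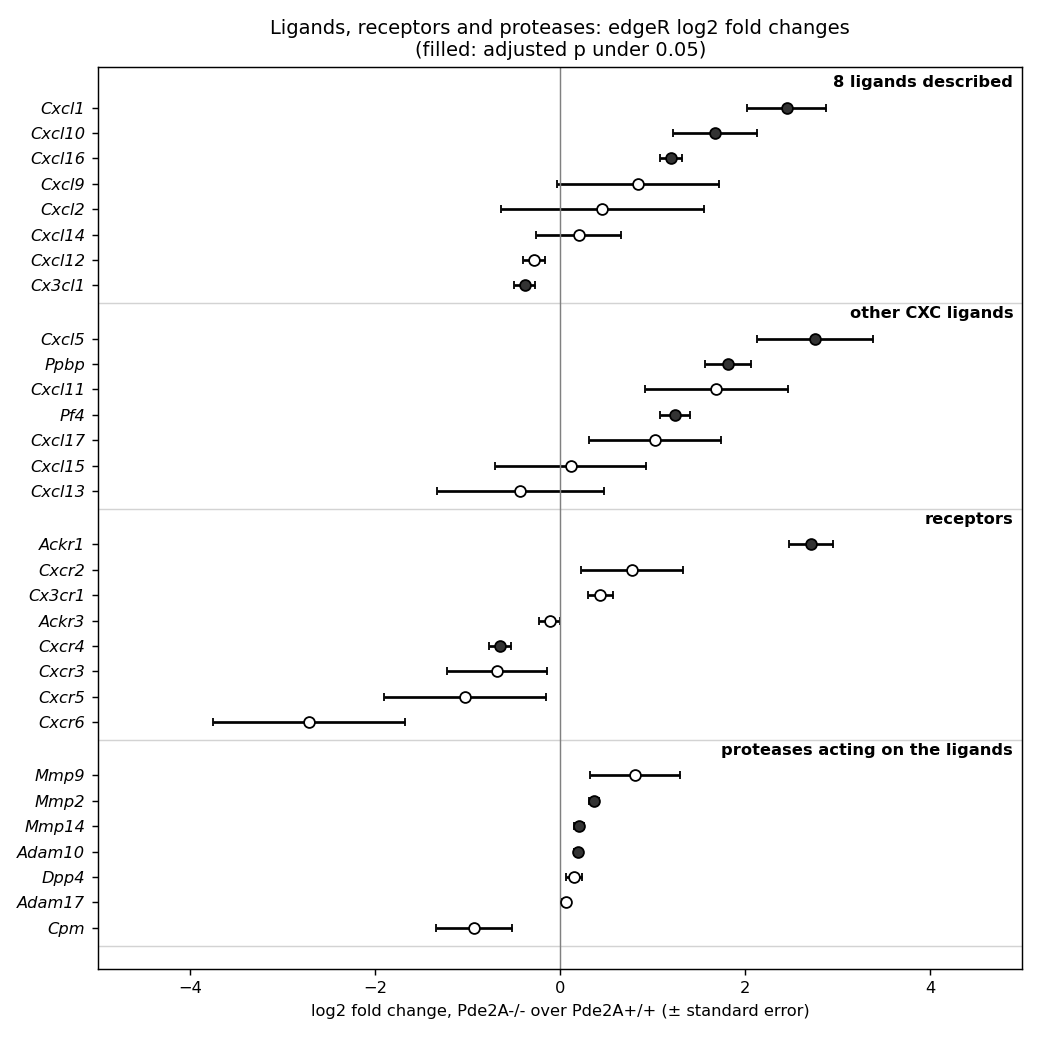
Log2 fold change of *Pde2A*-/- over *Pde2A*+/+ hearts (horizontal, ± SE of edgeR's fit) for the 8 ligands, the other CXC ligands, the receptors and the proteases, with filled points for an adjusted p under 0.05. Filled points lie right of 0 for *Cxcl1*, *Cxcl10*, *Cxcl16*, *Cxcl5*, *Ppbp*, *Pf4*, *Ackr1*, *Mmp2*, *Mmp14* and *Adam10*, and left of it for *Cx3cl1* and *Cxcr4*.

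The 5 *Pde2A*-/- hearts were not alike in the ligands that moved. Replicates 14, D and 15 had the 3 highest values of *Cxcl1*, *Cxcl10* and *Cxcl16* and the 3 lowest of *Cx3cl1*, and replicates A and B were nearer to *Pde2A*+/+ hearts in all 4. Replicate names are letters or numbers in both genotypes, and the labels do not say what this stands for. Among the hearts named by a letter (3 *Pde2A*-/- and 2 *Pde2A*+/+) the log2 fold changes of *Cxcl1*, *Cxcl10*, *Cxcl16* and *Cx3cl1* were 2.49, 0.94, 1.07 and −0.24, and 0 of them passed in edgeR, where 0.401% of 21466 genes rose and 0.0652% fell. Among those named by a number (2 and 4) they were 2.77, 2.34, 1.37 and −0.57, and all 4 passed, where 10.4% of 22191 genes rose and 8.17% fell. The difference between the naming styles was not tested. With naming style as a covariate over all 11 hearts, all 4 passed, at 2.67, 1.73, 1.23 and −0.41.

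**Figure D5:**
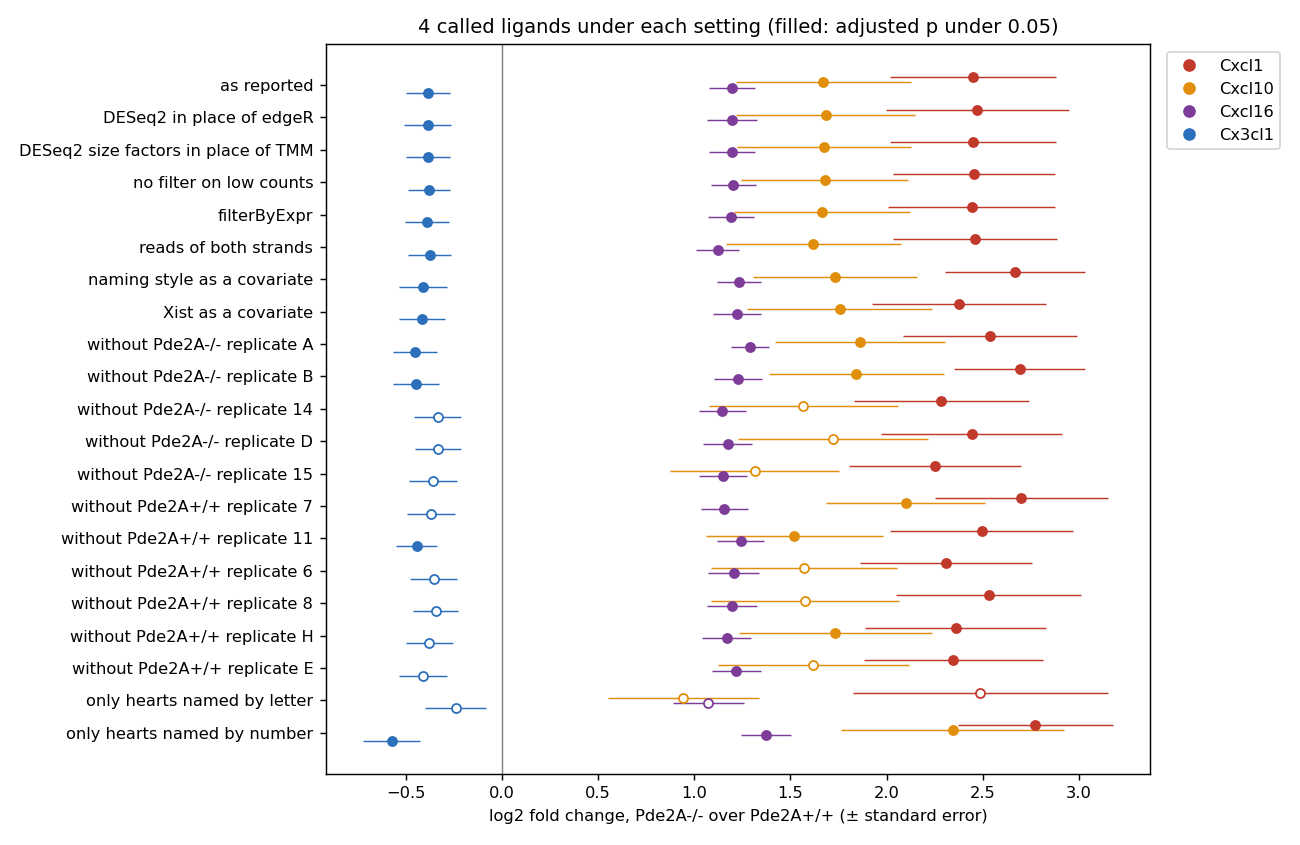
Log2 fold change (horizontal, ± SE) of *Cxcl1*, *Cxcl10*, *Cxcl16* and *Cx3cl1* as reported and under each other setting, with filled points for an adjusted p under 0.05. The direction is the same in all of them, *Cxcl1* and *Cxcl16* are open only in the 5 hearts named by a letter, and *Cxcl10* and *Cx3cl1* are open in several that leave out a heart.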

How the data were processed

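Stranded mRNA libraries of 11 E14.5 hearts (5 *Pde2A*-/-, 6 *Pde2A*+/+) were sequenced in single-end mode. The authors mapped the reads with STAR to GRCm38 (also given as mm10 in the submitters' notes) and deposited whole-number counts per gene, without normalization. Reads on no single gene, 19.6% to 22.4% per heart, were left out. Labels do not say whether hearts share a litter, so p-values measure the spread between these hearts. Sense-strand counts of genes reaching 10 counts in the 11 hearts together were fitted with edgeR 4.0.16 (R 4.3.3), with TMM normalization, the quasi-likelihood test and Benjamini-Hochberg adjustment, a gene being called at an adjusted p under 0.05. The common biological coefficient of variation was 16.8%. Positions are from GENCODE M21 on GRCm38, which named 55227 of 55487 identifiers. For *Cxcl1*, *Cxcl2* and *Cx3cl1* the RefSeq start lies inside the GENCODE gene. Of the 8 ligands 7 matched a RefSeq promoter.

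Named are the 8 ligands, all tested other CXC ligands, receptors and proteases, the 3 largest called changes of each inducer, response or marker list, the 3 genes nearest to each called ligand with a mean of at least 1 CPM, and *Pde2a*. Further genes were named after their values were seen. Members and lists were chosen with earlier results of these data known, and the study itself picked *Cxcl1*, *Cxcl10* and *Cxcl16* from these libraries for RT-qPCR. The paper reports that RT-qPCR of its selected genes fully bore out the sequencing. Intervals of count ratios (exact, 95%) cover counting error only. A level of 3 counts or fewer in every heart was treated as the floor. The fit was tested on simulated data. Alternatives were DESeq2 1.42.0, its size factors, other filters, reads of both strands, naming style or *Xist* as a covariate, and each heart left out. Fits within a naming style were chosen after seeing the data. Tables used Python 3.11.15.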

Additional observations from a re-analysis of the deposited data

Results flagged for a closer look

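Among the ligands, receptors and proteases, 60 groups of hearts were examined for a single heart far from the rest, of which chance flags about 1 in 20, and 4 were found, all in *Pde2A*+/+ hearts. *Cxcl9* had 0.235 CPM in *Pde2A*+/+ replicate 7 and at most 0.0272 CPM in the others. *Cxcr5*, the CXCL13 receptor gene, had 0.339 CPM in the same heart and at most 0.0960 CPM in the others. *Cpm*, the carboxypeptidase M gene, had 8.06 CPM there and at most 2.47 CPM in the others. *Cxcl14* had 1.47 CPM in *Pde2A*+/+ replicate 11 and at most 0.652 CPM in the others. Genes of the thymus and lymphocyte lists were also high in replicate 7, and the lung list summed to 20.8 CPM in *Pde2A*+/+ replicate 11 against at most 0.995 CPM in *Pde2A*-/- hearts, and their part in these values was not tested.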

How the results depend on the processing

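The 8 ligands kept the same calls (3 rose, 1 fell) with DESeq2 size factors, no filter, reads of both strands and either covariate. DESeq2 gave no adjusted p for *Cxcl2* and *Cxcl9* and edgeR's filterByExpr removed them, and the other 6 kept their calls in both. Without *Pde2A*-/- replicate 15, *Cxcl2* had too few counts. Leaving out each heart in turn gave log2 fold changes of 2.25 to 2.70 for *Cxcl1*, 1.31 to 2.099 for *Cxcl10*, 1.15 to 1.29 for *Cxcl16*, −0.45 to −0.33 for *Cx3cl1*, 0.58 to 2.74 for *Cxcl9*, −0.34 to −0.21 for *Cxcl12*, 0.21 to 1.09 for *Cxcl2* and −0.10 to 0.65 for *Cxcl14*, negative without *Pde2A*-/- replicate 14. The genes called higher numbered 1288 to 2887, fewest without *Pde2A*-/- replicate D, and those called lower 414 to 2165. In the hearts named by a letter 86 genes were called higher and 14 lower, and *Cxcl1* (2.49), *Cxcl10* (0.94), *Cxcl16* (1.07) and *Cx3cl1* (−0.24) did not pass, with fewer hearts in the fit, and neither did *Cxcl5*, *Pf4*, *Ppbp*, *Cxcr4*, *Adam10*, *Mmp2* and *Mmp14*. *Cxcl9* was −0.14 in the hearts named by a number, where replicate 7 is 1 of 4 *Pde2A*+/+ hearts. With a fold of at least 2, 535 genes were higher and 90 lower, and at an unadjusted p 3761 and 3607, while DESeq2 called 2354 lower. The cause was not tested for these.

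Of genes outside the 8 ligands that did not pass, *Cxcl13* turned to 0.39 with naming style as a covariate, to 2.09 in the hearts named by a letter and to 0.14 without *Pde2A*+/+ replicate 8 (−1.13 to 0.14 on leaving out a heart), *Cxcl15* to −0.18 with that covariate and to −0.37 to 0.52 on leaving out a heart (−0.37 and −0.15 without *Pde2A*-/- replicates A and D, −0.13 and −0.14 without *Pde2A*+/+ replicates 8 and H), *Cxcr2* to −0.18 and *Ackr3* to 0.076 in the hearts named by a letter. The cause was not tested. No paired analysis was possible because the genotypes share no replicate name. *Cxcl2*, *Cxcl9*, *Cxcl5* and *Cxcl11* had at most 9 counts in any heart, and of these *Cxcl5* passed and *Cxcl9* passed without *Pde2A*+/+ replicate 7, so depth limits their precision.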
